A study of Mus musculus with 2 samples.

Results

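The semaphorins, plexins and neuropilins are a family of guidance ligands and their receptors, and they were described here as 31 genes, 20 semaphorins, 9 plexins and 2 neuropilins. The genes were chosen by symbol and not by a rule on their levels, but with earlier results of these data known. All 31 were found among the 55536 genes of the tables made with GENCODE annotation release M21. The tissue was the facial prominence, made of the swellings that fuse into the face, taken from mice of the B6NCrl strain at embryonic day 12.5, with no treatment or engineered allele named in the labels. One group was sequenced by polyA plus RNA-seq, as 2 biological replicates from pools of 120 and 88 embryos of both sexes, so no comparison between conditions exists and each value is an average over many embryos and over the cell types of the dissected tissue.

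Semaphorins are secreted, membrane-spanning or lipid-anchored proteins that share a sema domain. Plexins are their transmembrane receptors and carry a GTPase-activating domain inside the cell, through which they change the cytoskeleton and adhesion. Most secreted class 3 semaphorins need a neuropilin, which binds the ligand beside an A-type plexin, and neuropilins also bind members of the VEGF family. In the embryonic head these proteins are known for steering cranial nerve axons, neural crest cells and growing vessels.

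Expected counts, the estimated reads per gene, summed over genes to 27887954 in replicate 1 and 39819259 in replicate 2. Levels are TPM, a share of all transcripts in the library, which divide counts by length and allow different genes to be set side by side, and they are given as mean ± SD over n = 2 libraries. Markers of facial mesenchyme were detected in 6 of 6 genes, at a summed 765 and 773 TPM in replicates 1 and 2. The 8 neuron markers were all detected too, at a summed 574 and 442 TPM, and the 7 endothelial markers at 144 and 143. In such a mixed tissue, fewer cells of a type and less RNA per cell cannot be told apart, and the part of these other cell types in the levels of the guidance genes was not tested.

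A gene was called detected when neither library fell below 1 TPM. This held for 28 of the 31 genes, or 90.3%, beside 60.7% of all 22028 protein-coding genes. The median over the 31 genes was 11.6 TPM, against 4.79 over all protein-coding genes and 21.5 over the detected ones. Plxnb2 was the 1 gene above 100 TPM. The 20 semaphorins summed to 292 ± 2.05 TPM, the 9 plexins to 249 ± 1.56 and both neuropilins to 92.2 ± 1.41. In the order of levels, Plxnb2 was followed by Nrp1, Sema3a, Sema3f, Sema6a and Nrp2. The ranges of both replicates overlapped in 13 of the 30 pairs of neighbours in that order, among them Nrp1 with Sema3a and Sema6a with Nrp2, so these pairs were not ranked.

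**Figure D1:**
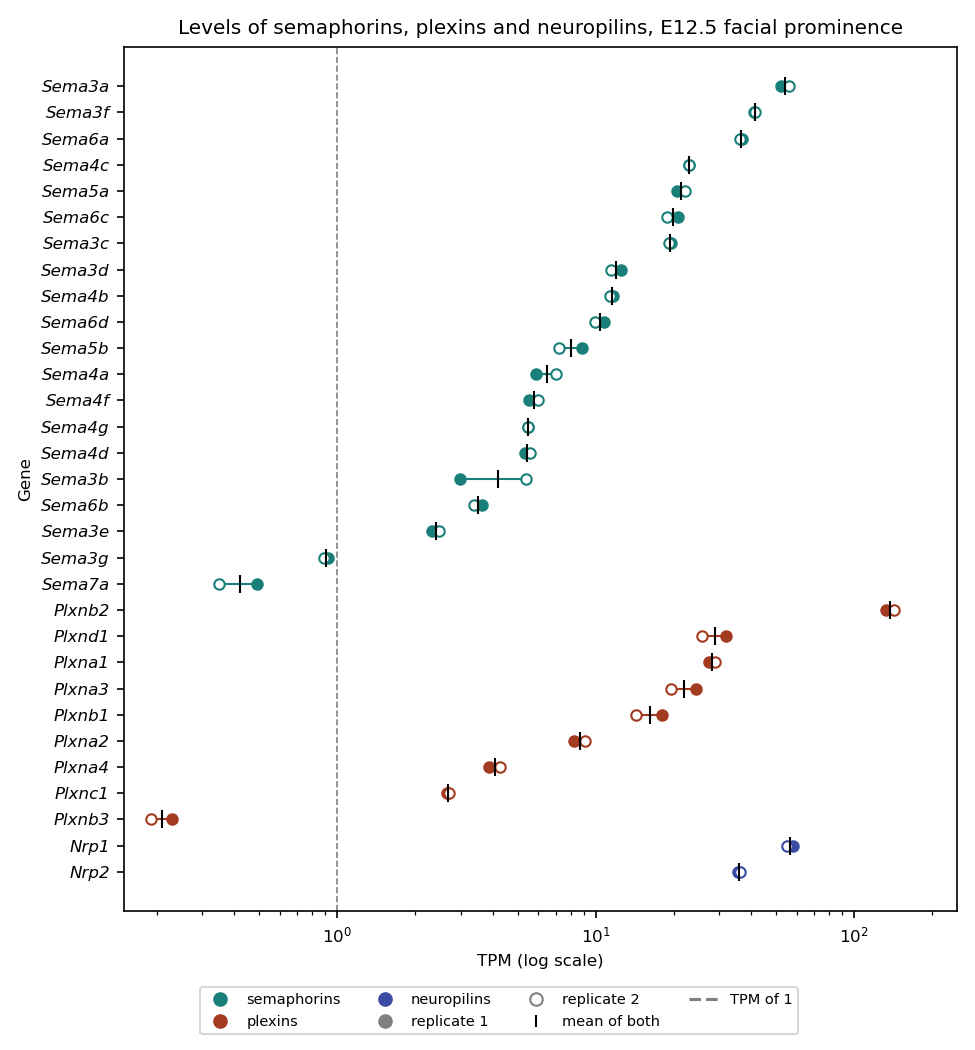
TPM (log scale) of each of the 31 genes in replicate 1 (filled) and replicate 2 (open), with the mean as a bar, by family. Plxnb2 stands alone above 100 TPM, Sema3g, Sema7a and Plxnb3 lie under the minimum of 1, and Sema3b has the widest gap between its replicates relative to its level.

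Class 3 semaphorins, the secreted class, held the largest summed level of the 5 semaphorin classes, 131 TPM in replicate 1 and 137 in replicate 2. Sema3a, a repellent of axons that binds Nrp1, was the highest semaphorin, at 52.0 and 56.2 TPM, and Sema3f, which binds mainly Nrp2, stood at 41.1 and 41.5 TPM. Together these ligands made up 32.1% and 33.3% of all semaphorin TPM. Sema3c, which acts on neural crest and vessels, followed at 19.5 and 19.2 TPM, and Sema3d at 12.6 and 11.5. The other class 3 genes were much lower. Sema3b was measured at 2.99 and 5.36 TPM, and Sema3e, which binds Plxnd1 without a neuropilin, at 2.33 and 2.48. Sema3g stood at 0.92 and 0.89 TPM, just under the detection minimum, from 75 and 103 expected counts. The top rank of Sema3a did not hold under another annotation release. Release M4 is an older annotation with which the libraries were also quantified. Under it, Sema3a was at 33.9 and 36.9 TPM, below Sema3f at 43.05 and 43.73 and Sema6a at 38.85 and 37.88. Over protein-coding transcripts of release M21, Sema3a was above Sema3f, at 31.6 and 34.5 TPM beside 27.4 and 27.0.

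A stretch of chromosome 5 holds, in this order, Sema3d (chr5:12383385-12588948), Sema3a (chr5:13125414-13602565), Sema3e (chr5:14025276-14256689) and Sema3c (chr5:17574281-17730268), all on the plus strand of mm10. Their mean levels along that stretch were 12.0, 54.1, 2.41 and 19.3 TPM, so these genes differed widely in level. Sema3b (chr9:107597674-107609229) and Sema3f (chr9:107681500-107710475) are closer together, on the minus strand, at means of 4.18 and 41.3 TPM.

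Sema3f was expressed in coding forms that differ by an exon. The form with a coding sequence of 2262 bases stood at 19.4 and 18.3 TPM, and the form of 2355 bases at 5.71 and 7.13 TPM. The longer form, Sema3f-204, includes an exon of 93 bases at chr9:107691356-107691448. That exon is shown in capitals, 5′ to 3′ on the transcript strand, between 21 bases of the coding exons on either side, because it is the only stretch of coding sequence that separates these forms.
Sema3f-204: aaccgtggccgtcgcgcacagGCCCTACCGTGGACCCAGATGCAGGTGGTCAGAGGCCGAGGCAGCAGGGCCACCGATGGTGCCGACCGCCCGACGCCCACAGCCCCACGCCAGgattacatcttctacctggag
The shorter form was higher than the longer one in both replicates, and the replicate ranges of the forms did not overlap.

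Class 4 semaphorins, which span the membrane and mostly signal through B-type plexins, were all 6 detected and summed to 57.0 and 58.4 TPM. Sema4c, a ligand of Plxnb2, was highest at 23.1 and 23.0 TPM, followed by Sema4b at 11.7 and 11.4. Sema4a stood at 5.90 and 7.03 TPM and Sema4f at 5.53 and 5.99. Sema4g was measured at 5.49 and 5.48 TPM and Sema4d, the ligand of Plxnb1 also known as CD100, at 5.33 and 5.55. The replicate ranges of Sema4g and Sema4d overlapped. Sema4g was lower by other measures, with a mean of 3.46 TPM under M4 and 2.66 over protein-coding transcripts of release M21.

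Class 5 semaphorins carry thrombospondin repeats beside the sema domain. Sema5a was at 20.6 and 22.1 TPM and Sema5b at 8.86 and 7.20, so Sema5a was higher in both libraries. Class 6 semaphorins, transmembrane ligands of A-type plexins that can also act as receptors, were all 4 detected and summed to 72.1 and 68.3 TPM. By gene TPM this was above class 4, but over protein-coding transcripts class 6 summed to 37.7 and 37.3 TPM and class 4 to 48.3 and 49.0. Sema6a, a ligand of Plxna2 and Plxna4, led with 36.9 and 36.0 TPM, before Sema6c at 20.8 and 18.9 and Sema6d, a ligand of Plxna1, at 10.8 and 9.98. Over protein-coding transcripts, the ranges of Sema6c, at 9.91 and 8.49 TPM, and Sema6d, at 8.87 and 9.02, overlapped. By gene TPM, Sema6b was lowest of the class at 3.63 and 3.38. Sema7a, the semaphorin with a lipid anchor, was under the minimum at 0.49 and 0.35 TPM, from 18 and 27 expected counts.

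Among the receptors, Plxnb2, a plexin with broad roles in neural tube closure and epithelia, was the highest of all 31 genes at 133 and 142 TPM. It made up 53.2% and 57.6% of all plexin TPM. The other B-type plexins were lower. Plxnb1 stood at 18.0 and 14.3 TPM, and Plxnb3 was under the minimum at 0.23 and 0.19 TPM, from 25 and 30 expected counts. Plxnb3 was thus the lowest of the 31 genes in both libraries.

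The 4 A-type plexins, the signalling partners of neuropilins, were all detected and summed to 64.0 and 62.0 TPM. Plxna1 was at 27.5 and 29.0 TPM and Plxna3, which lies on the X chromosome (chrX:74329066-74344689), at 24.5 and 19.6. Plxna2 stood at 8.22 and 9.10 TPM and Plxna4, a plexin of sensory and sympathetic neurons, at 3.87 and 4.28. Plxna1 and Plxna3 were each above Plxna2 and Plxna4 in both replicates. Plxnd1, the vascular plexin that receives Sema3e, was measured at 31.8 and 25.9 TPM, and Plxnc1, the receptor of Sema7a, at 2.66 and 2.70.

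Ligands and receptors that are known to pair stood at different levels. Sema3e had a mean of 2.41 TPM beside 28.9 for its receptor Plxnd1, and Sema7a 0.42 beside 2.68 for Plxnc1. Sema4c was at a mean of 23.0 TPM beside 138 for Plxnb2, and Sema4d at 5.44 beside 16.2 for Plxnb1. In these 4 pairs, picked as known partners after the levels were seen, the receptor was the higher gene in both libraries, but other pairs went the other way. Sema6a, at a mean of 36.5 TPM, was above its receptors Plxna2 at 8.66 and Plxna4 at 4.08 in both libraries. By gene TPM, Sema3f was above Nrp2 in both libraries, and Sema3a was below Nrp1 in replicate 1 and above it in replicate 2. Over protein-coding transcripts each ligand was below its neuropilin in both libraries, Sema3a at 31.6 and 34.5 TPM beside 43.2 and 40.5 for Nrp1. These are transcript levels of a mixed tissue and say nothing of which cells made either protein.

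Both neuropilins were among the 6 highest of the 31 genes. Nrp1 (chr8:128358604-128503363), the co-receptor of Sema3a and of VEGF, was at 57.8 and 55.1 TPM. Nrp2 (chr1:62703285-62818695), the co-receptor of Sema3f, was at 35.4 and 36.1 TPM. Nrp1 was therefore 1.63-fold and 1.53-fold higher than Nrp2 in replicates 1 and 2. That order was not the same under both releases. With release M4, Nrp1 was at 0.987 and 0.928 times the level of Nrp2, and over protein-coding transcripts of release M21 at 1.42 and 1.24 times.

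Nrp2 transcripts encode alternative membrane-proximal stretches and cytoplasmic tails, known as Nrp2a and Nrp2b, of which the a tail ends in a motif that binds PDZ proteins such as Gipc1. Release M21 lists 4 protein-coding transcripts with tail a and 2 with tail b. The sequences across the junction show how the forms differ. Each begins with the same 21 bases of the last shared exon and ends with 45 bases of the tail, 5′ to 3′ on the plus strand. The capitals mark the insertions between them, a 15-base extension of the shared exon (chr1:62786302-62786316) or a 51-base exon (chr1:62812534-62812584).
Nrp2-204 (tail a): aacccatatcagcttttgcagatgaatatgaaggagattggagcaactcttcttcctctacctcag
Nrp2-202 (tail a): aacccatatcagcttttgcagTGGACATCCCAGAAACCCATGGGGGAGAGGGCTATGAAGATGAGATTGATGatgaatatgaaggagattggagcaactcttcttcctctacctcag
Nrp2-201 (tail b): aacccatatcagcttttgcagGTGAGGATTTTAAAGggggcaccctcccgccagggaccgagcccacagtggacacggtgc
Nrp2-205 (tail b): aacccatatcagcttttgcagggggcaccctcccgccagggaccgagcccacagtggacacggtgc

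Both tails were present at like levels. Tail a summed to 16.1 and 17.9 TPM, or 52.6% and 54.9% of the coding Nrp2 level, and tail b to 14.5 and 14.7 TPM, or 47.4% and 45.1%. The insertions were distributed unevenly between the tails. Of the tail b level, 80.2% and 85.3% carried the 15-base extension, against 0% and 3.35% of the tail a level, both by the maximum-likelihood estimates. By the deposited posterior mean estimates, used after seeing the data, the extension was in 79.9% and 85.1% of tail b but in 15.8% and 20.9% of tail a, so the low share in tail a depends on the estimate. The leading a form, Nrp2-204, had neither insertion and stood at 12.6 and 13.6 TPM, and Nrp2-202, with the 51-base exon, at 3.49 and 3.71. Among the b forms, Nrp2-201 with the extension was at 11.6 and 12.6 TPM and Nrp2-205 without it at 2.87 and 2.17. Nrp2-203, which joins the extension to tail a, was listed at 0 in both libraries by maximum likelihood but at 6.5% and 8.25% of the gene by posterior mean. Nrp2-206, which carries both insertions, was at 0 and 0.60 TPM by maximum likelihood. These are the quantifier's estimates of how short reads divide among overlapping forms.

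**Figure D2:**
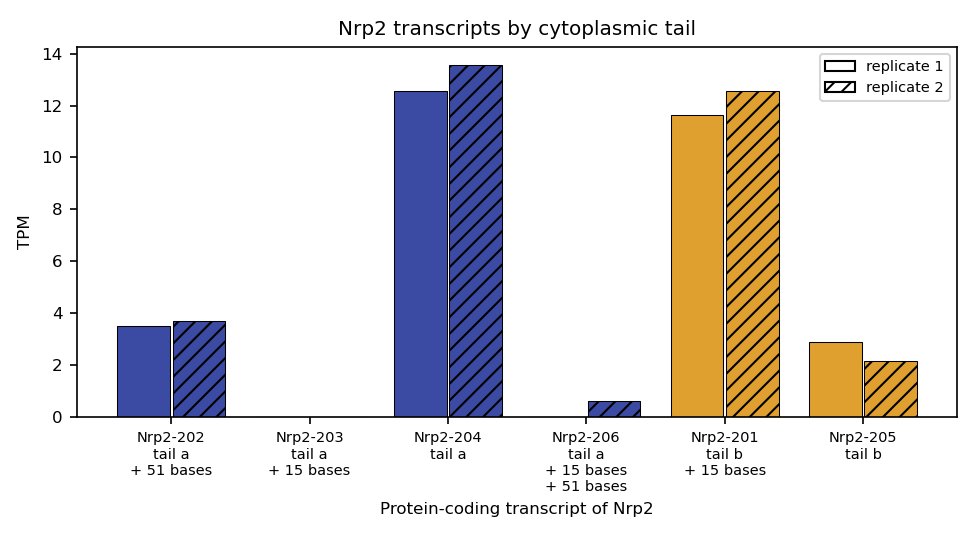
TPM of the 6 protein-coding Nrp2 transcripts in replicate 1 (plain bars) and replicate 2 (hatched bars), coloured by cytoplasmic tail, with the insertions each one carries. Nrp2-204 (tail a, no insertion) and Nrp2-201 (tail b with the 15-base extension) are the highest forms, each between 11.6 and 13.6 TPM.

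Other genes of the pathway were given from lists picked by their known role, and their detection stands beside 60.7% of all protein-coding genes. Of 26 effectors and intracellular partners, 25 were detected, with a median of 42.2 TPM. Cfl1, the actin-severing cofilin at the end of the Limk1 branch, was highest at a mean of 2025 TPM, before the GTPases Rac1 at 339 and Rhoa at 302 and the collapsin response mediator Dpysl2 at 278. The exception was Rnd1, a GTPase that binds plexins, at 0.45 and 0.71 TPM. Of 12 receptor partners, 10 were detected, led by the integrin Itgb1 at 184 TPM, Erbb2, which associates with B-type plexins, at 37.9, and the VEGF receptors Kdr at 23.5 and Flt1 at 11.4. Timd2, a binding partner of Sema4a, was the partner under 1 TPM in both, at 0 and 0.08, and the neural adhesion molecule Chl1, named after its values were seen, was under it in 1 library only, at 1.24 and 0.85.

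Proteases that process semaphorins or their receptors were detected in 6 of 6 genes. Adam10 led at a mean of 61.2 TPM, followed by Adam17 at 34.6 and the proprotein convertases Pcsk5 at 28.0 and Pcsk7 at 18.5. The VEGF ligands that bind neuropilins were detected in 4 of 4 genes, Vegfb at 43.4 TPM, Pgf at 13.5, Vegfc at 9.67 and Vegfa at 4.66. None of the 48 genes on these 4 lists differed between the replicates by 0.5 or more on the log2(TPM + 1) scale, beside 2.09% of protein-coding genes.

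A gene's TPM adds all its annotated transcripts, including those annotated as retained intron, processed transcript or subject to nonsense-mediated decay, which are not annotated to give the full protein. Over the 31 genes together, protein-coding transcripts held 64.2% of the TPM in both replicates. Retained introns held 20.7% and 19.3%, processed transcripts 12.0% and 12.9%, and decay targets 3.18% and 3.63%. The median coding share of the 28 detected genes was 72.5%, against 90.9% over all detected protein-coding genes. In 4 of the 28, or 14.3%, the coding share was under 50% in both replicates, beside 9.93% of detected protein-coding genes. These were Sema6a (41.3% and 45.7%), Sema6c (47.7% and 44.9%), Plxna3 (45.3% and 49.7%) and Plxnb2 (49.5% and 45.9%).

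**Figure D3:**
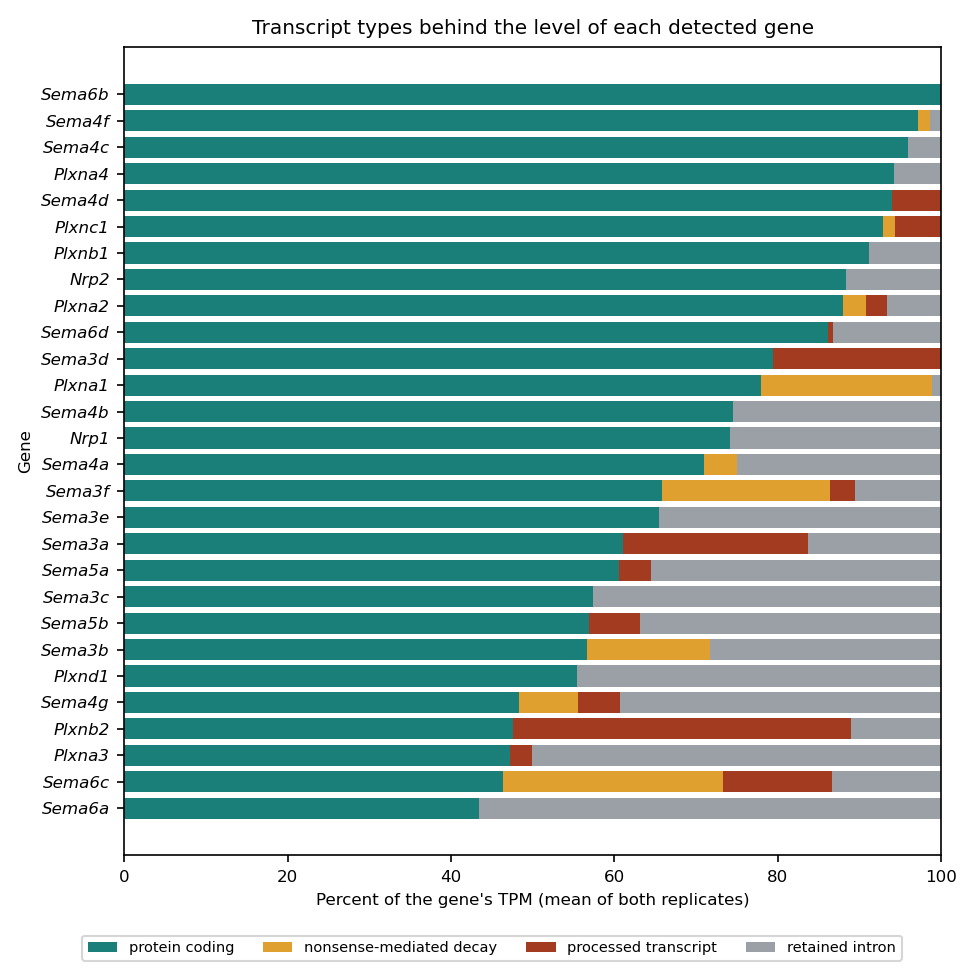
Percent of each detected gene's TPM, as the mean of both replicates, in transcripts annotated as protein coding, nonsense-mediated decay, processed transcript and retained intron, sorted by the coding share. Sema6b is wholly protein coding, while Sema6a, Sema6c, Plxna3, Plxnb2 and, by its mean, Sema4g have most of their level in other types.

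The leading transcript of Plxnb2 was Plxnb2-205, a processed transcript of 834 bases at the 3′ end of the gene (chr15:89155549-89156572) that lies wholly within exons of the gene's coding transcripts. It was given 53.3 and 60.6 TPM, 40.1% and 42.6% of the level of the gene, but only 8.37% and 9.41% of its expected counts. Since TPM divides by length, a short transcript weighs more in TPM than in counts. Without the transcripts that are not protein coding, Plxnb2 stood at 65.8 and 65.4 TPM, and it was still the highest of the 31 genes. Its share of plexin TPM was then 45.4% and 46.5%.

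Other genes had parts of their level in short or non-coding transcripts as well. Plxna1-205, a decay target of 459 bases inside coding exons, held 19.0% and 22.8% of the TPM of Plxna1 with 0.992% and 1.28% of its counts. Sema3a-207 and Sema3a-208 share no base with the exons of coding Sema3a transcripts and held 21.8% and 21.6%, and 11.9% and 11.4%, of its TPM. Counted over protein-coding transcripts alone, Sema3a stood at 31.6 and 34.5 TPM and Nrp1 at 43.2 and 40.5. Nrp2, at 30.6 and 32.6 TPM by this measure, lay above Sema3f, at 27.4 and 27.0, whereas by gene TPM it lay below Sema3f in both replicates. Sema6a was reduced to 15.2 and 16.5 TPM.

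A single transcript carried at least 50% of the gene's level in both replicates for 14 of the 28 detected genes, or 50%, beside 66.9% of detected protein-coding genes with more than 1 transcript. Sema6b (96.8% and 97.4%), Plxna4 (96.7% and 92.1%) and Sema4f (94.1% and 100%) were the most uniform of the 14 by their lower value. The leading transcript was the same in both replicates for 25 of the 28 genes, near the 90.5% over all such genes. It differed for Sema3b, Sema4a and Sema4g. In Sema4g, a retained intron led in replicate 1 with 30.3%, beside 30.2% for the coding transcript that led in replicate 2 with 53.2%. A leading transcript that is not protein coding in either library was seen for Sema6a, at 31.4% and 30.4%, and for Plxnb2, beside 8.13% of such genes.

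The same libraries had also been quantified with release M4, so each level could be set beside its level under M21. No label names the software of either quantification, and whether the annotation alone made the differences was not tested. Of the 31 genes, 3, or 9.68%, differed by 0.5 or more in log2(TPM + 1) the same way in both replicates, beside 3.99% of protein-coding genes, and all 3 were higher under M21, as were 3.23% of protein-coding genes. Nrp1 was at 36.8 and 35.2 TPM under M4, Sema3a at 33.9 and 36.9, and Plxnd1 at 17.9 and 17.4. The log2 differences of M21 over M4 in replicates 1 and 2 were 0.64 and 0.63 for Nrp1, 0.60 and 0.60 for Sema3a and 0.80 and 0.55 for Plxnd1. Sema4g lay just outside the rule, at 0.60 and 0.48. Over all detected protein-coding genes, the median difference was -0.06.

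The expected counts behind these genes moved less than their TPM for Nrp1 and Plxnd1. Nrp1 had 3534 and 4769 counts under M21 and 3732 and 5073 under M4, while its effective length, the length by which counts are divided, was 3316 and 3308 bases under M21 and 5808 under M4. M4 lists 1 Nrp1 transcript and M21 lists 4. Plxnd1 had 2098 and 2933 counts under M21 and 2098 and 2932 under M4, so nearly the same reads gave the different TPM values. For Sema3a both changed. Its counts were 3760 and 5975 under M21 and 2989 and 4817 under M4, with 9 and 5 annotated transcripts.

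**Figure D4:**
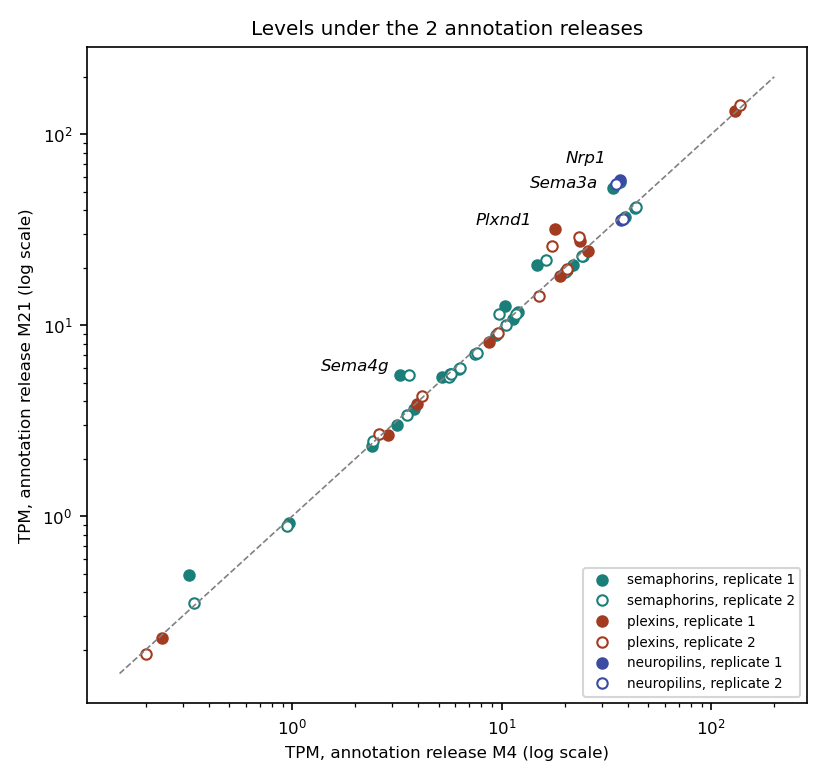
TPM of the 31 genes under annotation release M21 against release M4 (both log scales), by family and replicate, with the line of equality. Nrp1, Sema3a and Plxnd1 are the genes past the rule of 0.5 on the log2(TPM + 1) scale, all above the line, and Sema4g lies just outside it.

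The replicates were compared last, as 1 library against another with no p-value. At a size of 0.5 or more in log2 of (TPM + 1) of replicate 2 over replicate 1, 1 of the 31 genes differed, Sema3b, beside 2.09% of protein-coding genes. It was higher in replicate 2, as were 0.944% of protein-coding genes by the same rule. With posterior mean TPM, TMM or median-of-ratios scaling, or protein-coding transcripts alone, 0 genes passed. The median log2 ratio of the 31 genes was -0.0048, beside 0 for all protein-coding genes. Sema3b had 2.99 and 5.36 TPM, a log2 ratio of 0.67. Its expected counts were 148 and 284, a count ratio of 1.34 after scaling to the summed gene counts, with an exact 95% interval of 1.10 to 1.65 that covers counting error only. Its effective length moved with the result, from 2683 to 2025 bases. Its TPM over coding transcripts was 2.21 and 2.53, so the difference in coding transcripts was smaller than in the gene's TPM. Sema3b-208, a retained intron of 358 bases, was given 0 and 1.79 TPM, from 0 and 12.12 expected counts. Other transcripts moved either way, such as Sema3b-204 from 0.84 to 0 TPM and Sema3b-205 from 0.13 to 1.42.

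For Plxnd1 the same contrast of counts and TPM ran the other way. Its TPM was 31.8 and 25.9, a ratio of 0.813, but its count ratio was 0.979 with an interval of 0.925 to 1.04, and its effective length was 21.2% longer in replicate 2. Over coding transcripts Plxnd1 stood at 16.1 and 15.9 TPM. The count interval excluded 1 for 9 of the 28 detected genes, or 32.1%, which is near the 30.0% over all detected protein-coding genes. Sema3a, Sema3b, Sema4a, Sema5a and Plxna2 were higher in replicate 2 by this measure, beside 14.6% of detected protein-coding genes. Sema5b, Plxna3, Plxnb1 and Nrp1 were higher in replicate 1, beside 15.4%. The interval farthest below 1 belonged to Plxnb1, at a ratio of 0.860 (0.814 to 0.910), with 18.0 and 14.3 TPM. Some marker sums moved between the replicates as well. From replicate 1 to replicate 2, neuron markers went from 574 to 442 TPM, glia of crest origin from 202 to 164, erythroid markers from 9705 to 8740.3 and skeletal muscle from 312 to 375. Their part in these differences was not tested.

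**Figure D5:**
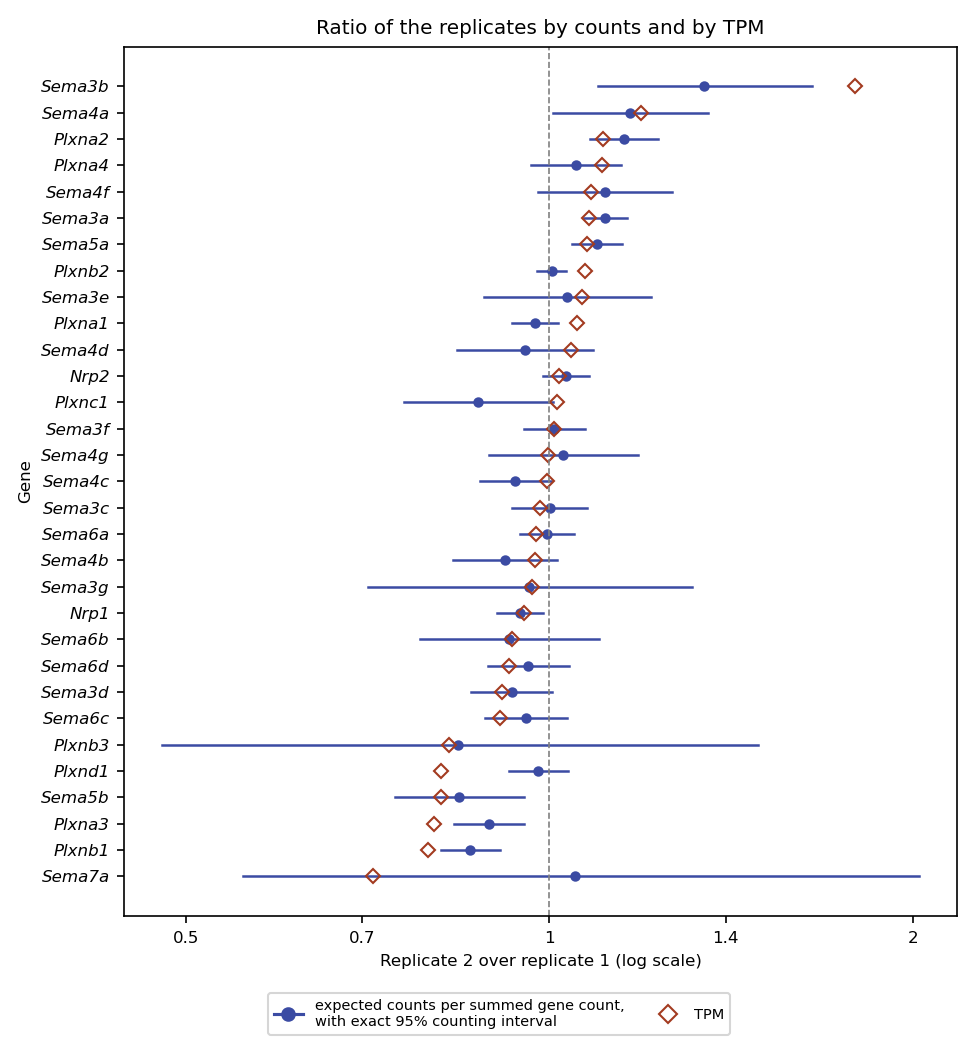
Ratio of replicate 2 over replicate 1 (log scale) for each of the 31 genes, by expected counts with their exact 95% counting interval (points and lines) and by TPM (diamonds). Sema3b has the highest ratio by both measures, and the TPM ratios of 7 genes (Sema3b, Plxna1, Plxna3, Plxnb1, Plxnb2, Plxnc1 and Plxnd1) lie outside their count intervals.

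Promoter sequence was available from RefSeq (GRCm38.p6, the build of these tables) for 26 of the 31 genes, as 37 promoters; Plxna1, Plxna4, Sema3b, Sema3f and Sema6a were not matched. In the 250 bases before the start, the CG dinucleotide occurred a median of 13 times in these promoters and 6 times in all 32851 of the table. At least 10 occurred in 56.8% of the promoters of these genes and in 37.8% of all. The 250 bases upstream of the highest gene, Plxnb2 (chr15:89180789-89181038, minus strand, 20 occurrences), and of a gene under the detection minimum, Sema7a (chr9:57939862-57940111, plus strand, 17 occurrences), are shown 5′ to 3′ with each CG in capitals, as examples of CG-rich promoters of a high and a low gene. A CG-poor promoter occurred at the low end too, with 3 occurrences for Plxnb3, the lowest gene. The promoter matched to Sema3a (chr5:13396534-13396833) held 2. It does not lie at the start of the leading transcript, Sema3a-201, which is at chr5:13399309, so it was not set beside the level of Sema3a.
Plxnb2: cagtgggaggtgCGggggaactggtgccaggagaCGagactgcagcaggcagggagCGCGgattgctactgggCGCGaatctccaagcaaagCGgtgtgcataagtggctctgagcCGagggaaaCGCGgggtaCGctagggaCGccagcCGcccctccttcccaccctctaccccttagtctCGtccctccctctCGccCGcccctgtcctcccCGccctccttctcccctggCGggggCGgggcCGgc
Sema7a: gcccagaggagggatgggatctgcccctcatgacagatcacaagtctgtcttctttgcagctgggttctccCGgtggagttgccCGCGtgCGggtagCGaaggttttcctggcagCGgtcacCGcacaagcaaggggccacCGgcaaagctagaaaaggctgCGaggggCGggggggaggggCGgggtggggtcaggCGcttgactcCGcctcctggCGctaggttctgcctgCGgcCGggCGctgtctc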

How the data were processed

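PolyA plus RNA-seq of 2 libraries was deposited as gene and transcript tables on mm10, quantified with GENCODE release M21 and again with M4, per the files' deposited descriptions. No label or file header names the aligner, the quantifier or the strand setting. Per the file headers, the authors' tables hold expected counts (estimated reads, not normalized), TPM as maximum-likelihood and posterior mean estimates, FPKM, and, for transcripts, the percent of the gene's abundance. Rows that name no gene took 2.85% and 3.10% of the summed counts, 28705073 and 41092194, and stayed out of library sizes.

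From these tables, levels, sums over classes and protein-coding transcripts, log2 ratios with a pseudocount of 1 TPM, and exact conditional (Clopper-Pearson) 95% intervals of rounded expected counts were computed with Python 3.11.15, pandas 2.3.3 and SciPy 1.17.1. TMM factors came from edgeR 4.0.16 in R 4.3.3. The intervals cover counting error only and hold no term for variation between libraries or pools of embryos. Amplified reads that carry no molecular identifier may repeat 1 molecule, and the intervals do not allow for that either. With 2 libraries, an exact sign-flip test cannot go below p = 0.5, so no p-values are given. Gene positions and transcript types are those of GENCODE M21. The intervals were tested on simulated counts that hold counting error only. The fold size of 0.5 was tested there on count ratios of genes with planted changes, not on log2(TPM + 1).

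All 31 guidance genes were named, with the 4 highest genes of each pathway list and those under 1 TPM in both libraries. The genes and the lists were chosen with earlier results of these data known. Counts were whole numbers in both libraries for 27 of the 31 genes. Genes on the opposite strand overlap exons of Sema4c, Plxna1, Plxnb1 and Plxna4, at 1.37 TPM or less, and their reads cannot be told apart without a strand setting.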

Additional observations from a re-analysis of the deposited data

How the results depend on the processing

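The number of detected guidance genes was 28 in replicate 1 or 2 alone, at a minimum of 2 TPM, with posterior mean TPM, with release M4 and over protein-coding transcripts (a setting chosen after seeing the data), and 29 at a minimum of 0.5 TPM. The number past the log2 ratio of 0.5 between replicates was 1 with a pseudocount of 0.1, FPKM, spike-in scaling, release M4 or a mean TPM of at least 1. It was 0 with posterior mean TPM, TMM, median-of-ratios scaling or protein-coding transcripts alone, 0 at a log2 ratio of 1, and 5 at 0.25, namely Sema3b, Sema5b, Plxna3, Plxnb1 and Plxnd1. Spike-in scaling shifted ratios by 0.14 on the log2 scale before the pseudocount, and by less for low genes with it. Summed levels moved by more than the SD of the replicates. Semaphorins summed to 298.5 TPM with posterior means, 273 with release M4 and 189.6 over protein-coding transcripts, plexins to 245.7, 231 and 143, and neuropilins to 89.5, 73.6 and 73.5. With 1 replicate left out, the sums ranged from 290.45 to 293 for semaphorins, 247.5 to 249.8 for plexins and 91.2 to 93.2 for neuropilins. A leading transcript of at least 50% was found for 17 of all 31 genes, for 14 with posterior means, for 17 and 19 in single replicates, and for 26 among protein-coding transcripts alone. Genes that moved between releases numbered 3, 4 with a pseudocount of 0.1, when Sema4g joined, and 0 at a log2 ratio of 1. The causes of these shifts were not tested. Single-gene levels moved by more than their SD for 16 of 31 genes with release M4, 11 with posterior means and 26 over protein-coding transcripts. The median log2 ratio between replicates ranged from -0.12, with spike-in scaling, to 0.0047, at a mean TPM of at least 1. Depth limits the low genes: Sema7a and Plxnb3 rest on 18 to 30 counts a library, and their count ratio intervals span 1. No paired analysis was possible because the labels give 1 group.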
